A study of Mus musculus with 2 samples.

Results

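The Slc25a genes encode the mitochondrial carrier family, the proteins that move nucleotides, phosphate, amino acids, keto acids, cofactors and iron across the inner mitochondrial membrane. Members were taken as the annotated genes whose symbol starts with Slc25a, and the reads of all transcript models of a gene were summed. The annotation held 48 such names, of which 47 were protein-coding and 1, Slc25a5-ps, was a pseudogene. Reads fell on 37 of them, out of 14451 annotated genes with reads.

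The data were 2 long-read RNA libraries of gastrocnemius, a calf muscle, from adult female mice of the hybrid strain B6CASTF1/J aged 18 to 20 months, obtained from The Jackson Laboratory. Both libraries were started from 2 µg of RNA, received SIRV and ERCC spike-in RNA, and are labelled as biological replicates 1 and 2 of 1 group, so no condition was compared. The labels give 1 donor record for both and do not say how many animals each came from, and the p-values below therefore speak of these 2 libraries alone and may reflect technical differences.

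Carriers of this family share a fold of repeated pairs of membrane-spanning helices and most work by exchange, taking 1 kind of molecule in as another goes out. In muscle the best-known traffic is that of energy: ADP/ATP carriers release the ATP made in the matrix, the phosphate carrier supplies phosphate for its synthesis, and the aspartate/glutamate and oxoglutarate carriers pass the reducing power of glycolysis inwards through the malate-aspartate shuttle. Other members bring in acylcarnitines, amino acids, coenzymes and iron for the enzymes inside.

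The sequences in the next lines belong to the 3 genes in which the reads chose between alternative parts: the exclusive exons of Slc25a3, the first coding exons of Slc25a25 and the last coding exon of Slc25a23. All are from GENCODE M21 transcripts on mm10, on the minus strand, and written 5′ to 3′. In the exon 3 pair of the phosphate carrier gene Slc25a3, capitals mark bases that differ between the exons in a global alignment. Exon 3A lies at chr10:91122207-91122331 and exon 3B at chr10:91121922-91122043.
Slc25a3 exon 3A: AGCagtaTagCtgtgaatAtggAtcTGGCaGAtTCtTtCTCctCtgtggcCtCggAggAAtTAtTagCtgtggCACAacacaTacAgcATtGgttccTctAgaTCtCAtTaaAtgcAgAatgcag
Slc25a3 exon 3B: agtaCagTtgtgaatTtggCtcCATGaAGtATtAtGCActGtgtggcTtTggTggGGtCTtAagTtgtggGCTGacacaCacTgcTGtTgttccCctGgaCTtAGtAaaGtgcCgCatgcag
The exons measured 125 and 122 bases, and 77 bases were identical in the alignment, which is 61.6% of exon 3A. Their lengths differ by 3 bases, so both keep the reading frame.

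In Slc25a25, the gene of a calcium-regulated ATP-Mg/phosphate carrier, capitals mark the start codon of the coding part of 2 alternative first exons. The first, of Slc25a25-203, lies at chr2:32423794-32423952 and is the one nearly all reads used. The second, of Slc25a25-201, lies at chr2:32451067-32451324.
Slc25a25-203: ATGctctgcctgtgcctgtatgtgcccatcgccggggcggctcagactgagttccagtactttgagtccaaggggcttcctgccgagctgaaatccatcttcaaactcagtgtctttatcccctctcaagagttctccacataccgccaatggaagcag
Slc25a25-201: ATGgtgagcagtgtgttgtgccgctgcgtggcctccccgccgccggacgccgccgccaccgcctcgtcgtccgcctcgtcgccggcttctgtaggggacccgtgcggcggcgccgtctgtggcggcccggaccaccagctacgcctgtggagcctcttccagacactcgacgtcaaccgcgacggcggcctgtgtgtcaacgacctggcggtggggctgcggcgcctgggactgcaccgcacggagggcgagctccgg

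In Slc25a23, a relative of Slc25a25 in the same group of carriers, the coding part of the last exon of Slc25a23-206 lies at chr17:57047121-57047336. Capitals mark the 65 bases past the splice site at which the full-length form Slc25a23-201 leaves this exon.
Slc25a23-206: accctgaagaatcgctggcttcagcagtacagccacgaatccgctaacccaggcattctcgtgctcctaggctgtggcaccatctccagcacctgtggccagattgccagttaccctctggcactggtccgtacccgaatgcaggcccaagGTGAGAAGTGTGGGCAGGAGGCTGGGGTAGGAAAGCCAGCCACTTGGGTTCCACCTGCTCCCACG

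Replicate 1 held 1117891 reads of annotated endogenous genes, over 13149 genes, and replicate 2 held 975696, over 12699. Levels are in counts per 1000000 of these reads (CPM). Each long read stands for 1 cDNA molecule, so levels are not divided by length. A count of 0 allows a level of up to 2.68 CPM in replicate 1 and 3.07 CPM in replicate 2; intervals and such limits cover counting error only. Spike-ins took 2.57% of all reads in replicate 1 and 0.748% in replicate 2. Ckm, the cytosolic creatine kinase that marks muscle, stood at 61543 and 55015 CPM. The libraries differed in fibre-type transcripts: all 12 slow-fibre markers were higher in replicate 2, with a summed level of 880 CPM in replicate 1 and 5747 CPM in replicate 2. The 13 fast-fibre markers summed to 251649 and 295129 CPM, most of it Atp2a1 (151696 and 191442 CPM). Of these, 6 were higher in replicate 1, with leading annotated models of 345 to 953 bases. The 7 higher in replicate 2 had models of 1847 to 6083 bases. Against genes of like length, as described below, 8 of the 13 fast-fibre and all 12 slow-fibre markers were called. In a bulk sample, fewer fibres of a type and less RNA per fibre cannot be told apart. Markers of other cells summed to less than 500 CPM per list in each library. The endothelial list held 143 and 114 CPM, the fibroblast list 354 and 481, the smooth muscle list 165 and 248, the erythroid list 225 and 134, the adipocyte list 123 and 78.9, the Schwann cell list 107 and 61.5, the macrophage list 72.5 and 30.7, and the satellite cell list 59.0 and 38.9. By an exact binomial test with Benjamini-Hochberg adjustment, which called 11.7% of all 8394 genes tested, called members of these lists numbered 4 of 8 for fibroblasts, 2 of 5 tested for smooth muscle, 1 of 4 for Schwann cells, 1 of 5 for macrophages and 0 for the endothelial, adipocyte, erythroid and satellite cell lists. Among defining markers, Pax7 of satellite cells, Slc4a1 of red cells and Cd68 of macrophages had 0 reads in both libraries, while others of the same lists were read. Cdh15 of satellite cells had 58 and 33 reads, Hba-a1 of red cells 116 and 76, and Lyz2 of macrophages 43 and 7.

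Counted over all models, the carrier family as a whole was read at nearly the same CPM in both libraries. Its summed level was 10380 CPM in replicate 1 and 10363 CPM in replicate 2, or 10372 ± 12.3 CPM (SD, n = 2), which is 1.04% of the reads in each. The libraries lay further apart, with replicate 2 higher, when fewer models were counted. Known models alone gave 13197 and 14678 CPM, Known, NIC and NNC models 9971 and 10305, and models with over 1 exon 9368 and 9679. The ADP/ATP carrier Slc25a4 made up most of the family, with 79.7% of its reads in replicate 1 (Wilson 95% interval 78.9 to 80.4) and 78.7% in replicate 2 (77.9 to 79.5). The other members together summed to 2111 and 2211 CPM. Of the 37 genes read, 1 lay above 1000 CPM as a mean of the libraries, 5 between 100 and 1000, 3 between 50 and 100, 14 between 10 and 50, and 12 between 1 and 10.

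**Figure D1:**
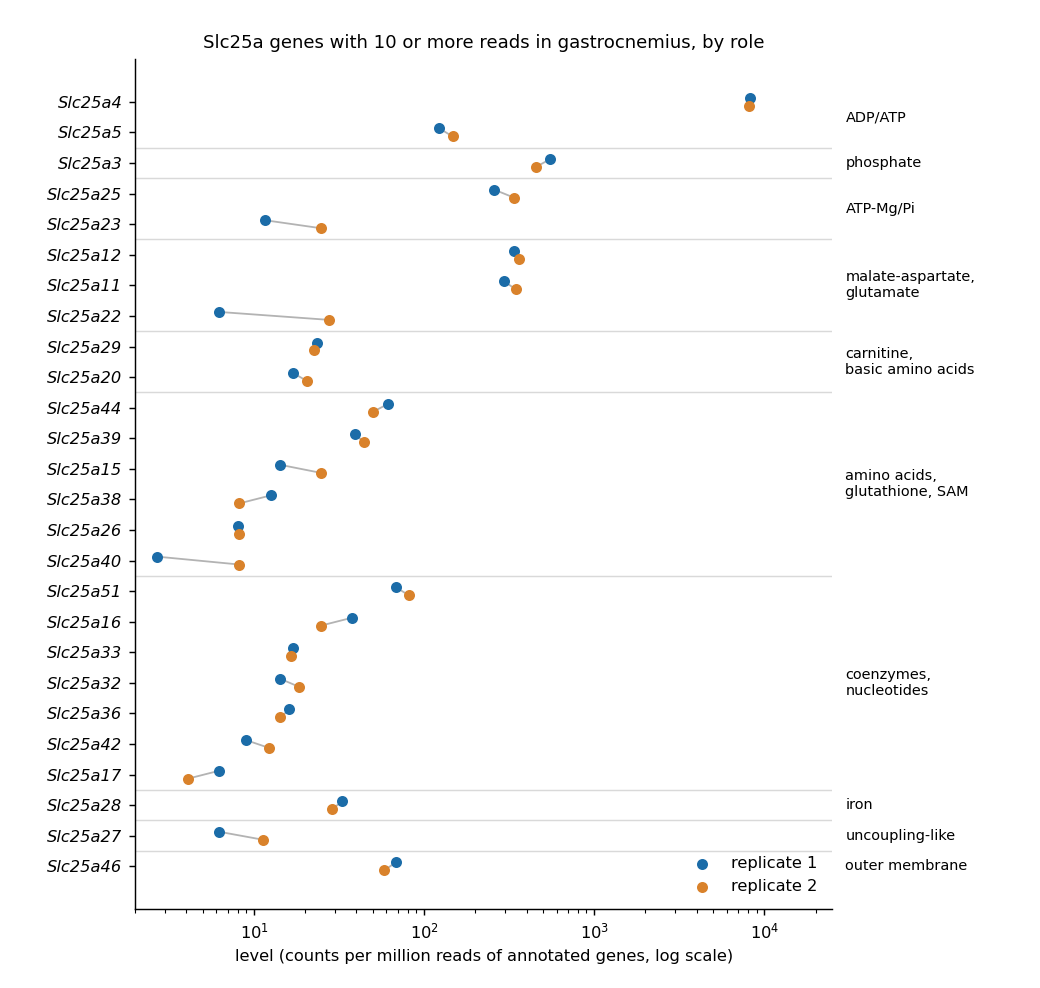
Level of 26 of the 27 Slc25a genes with 10 or more reads in total, in CPM on a log scale, grouped by role, with 1 point for each library. Slc25a4 stands at 8269 and 8152 CPM, far right of the next, Slc25a3, at 552 and 453 CPM.

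Among the ADP/ATP carriers, which swap cytosolic ADP for matrix ATP, the muscle and heart form Slc25a4 (chr8:46206797-46211284, minus strand) had 9244 reads in replicate 1 and 7954 in replicate 2, or 8269 and 8152 CPM. It ranked 11 of all annotated genes by mean level, at 8211 ± 82.7 CPM (SD, n = 2). The widely expressed form Slc25a5 (chrX:36795651-36798807, plus strand) had 138 and 143 reads, or 123 and 147 CPM. It thus took 1.47% of this group's reads in replicate 1 and 1.77% in replicate 2. Slc25a31, the form known from testis, had 0 reads in both libraries, and Slc25a5-ps had 1 read, in replicate 2.

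The phosphate carrier Slc25a3 (chr10:91116574-91124059, minus strand) was the second most abundant member, with 617 and 442 reads, or 552 and 453 CPM. Slc25a4 stood 15.0 times above it in replicate 1 and 18.0 times in replicate 2. Its lower library lay above the higher library of every member below it.

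The malate-aspartate shuttle was read almost wholly through 1 form of each carrier. The aspartate/glutamate carrier Slc25a12 (chr2:71271063-71367749, minus strand) had 376 and 353 reads, or 336 and 362 CPM. Slc25a13, the aspartate/glutamate carrier known from liver, had 0 reads in both libraries, which allows up to 0.421% of the reads of this group in replicate 1 and 0.418% in replicate 2. The oxoglutarate/malate carrier Slc25a11 (chr11:70644196-70647479, minus strand) had 330 and 338 reads, or 295 and 346 CPM. It was lower than Slc25a12 in both libraries, and the ranges of the pair overlapped. The glutamate carrier Slc25a22 (chr7:141429744-141437892, minus strand) had 7 and 27 reads, or 6.26 and 27.7 CPM, and the other glutamate carrier, Slc25a18, had 0.

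Of the ATP-Mg/phosphate carriers, which change the size of the matrix nucleotide pool, Slc25a25 (chr2:32414487-32451445, minus strand) held 95.7% of the reads in replicate 1 and 93.2% in replicate 2. It had 288 and 329 reads, or 258 and 337 CPM, and its range overlapped those of Slc25a11 and Slc25a12. Slc25a23 (chr17:57043711-57059863, minus strand) had 13 and 24 reads. Slc25a24 and Slc25a41 had 0 reads in both libraries; Slc25a41 is the annotated neighbour of Slc25a23 on the same strand.

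The carnitine/acylcarnitine carrier Slc25a20, which admits long-chain fatty acids for oxidation, was read at a low level, with 19 and 20 reads, or 17.0 and 20.5 CPM. The basic amino acid carrier Slc25a29 had 26 and 22 reads, or 23.3 and 22.5 CPM. Slc25a47, the divergent neighbour of Slc25a29 on chromosome 12, had 5 and 2 reads, and Slc25a45 and Slc25a48 had 0.

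Carriers of amino acids, glutathione and S-adenosylmethionine were led by Slc25a44, a carrier of branched-chain amino acids, with 69 and 49 reads, or 61.7 and 50.2 CPM. Slc25a39, which brings in glutathione, had 44 and 43 reads, and its relative Slc25a40 had 3 and 8. The ornithine carrier Slc25a15 had 16 and 24 reads, the glycine carrier Slc25a38 had 14 and 8, and the S-adenosylmethionine carrier Slc25a26 had 9 and 8. Slc25a2, the other ornithine carrier, had 0.

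All 8 annotated carriers of coenzymes, nucleotides and vitamins were read, and together they summed to 214 and 210 CPM. The NAD carrier Slc25a51 led them with 76 and 79 reads, or 68.0 and 81.0 CPM. Slc25a16, linked to coenzyme A, had 42 and 24 reads, or 37.6 and 24.6 CPM. The pyrimidine nucleotide carriers Slc25a33 and Slc25a36 had 19 and 16 reads and 18 and 14 reads. Slc25a32, a folate and FAD carrier, had 16 and 18, the coenzyme A carrier Slc25a42 had 10 and 12, and the peroxisomal member Slc25a17 had 7 and 4.

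Of the iron carriers, mitoferrin 2 (Slc25a28) had 37 and 28 reads, or 33.1 and 28.7 CPM, against 4 and 4 reads for mitoferrin 1 (Slc25a37), the form known from red cell precursors. Slc25a46, an outer membrane member tied to mitochondrial shape, had 76 and 57 reads, or 68.0 and 58.4 CPM. The uncoupling-like members were scarce: Slc25a27 had 7 and 11 reads, Slc25a14 4 and 3, and Slc25a30 1 and 3.

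The carriers that send citric acid cycle intermediates out of the matrix were near the limit of detection. The dicarboxylate carrier Slc25a10 had 7 and 1 reads, the citrate carrier Slc25a1 had 4 and 1, and the oxodicarboxylate carrier Slc25a21 had 0. Of the members with no settled role, Slc25a35 had 4 and 1 reads, Slc25a34 1 and 2, and Slc25a53 2 and 0, while Slc25a43 and Slc25a54 had 0. In all, 27 members had 10 or more reads, 10 had 1 to 9, and 11 had 0.

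Between the libraries, 4 of the 27 tested members differed, or 14.8%, and all 4 were higher in replicate 2. Over all 8394 genes tested, 11.7% differed, with 4.61% higher in replicate 1 and 7.06% higher in replicate 2, so the members' share was near the background. The test was an exact binomial test on counts scaled by edgeR's TMM factors, with Benjamini-Hochberg adjustment over all genes tested. The members' median log2 ratio (replicate 1 over replicate 2) was -0.22, against -0.00 over all tested genes. The 13 members with 50 or more reads lay between -0.50 and 0.50 on that scale.

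Slc25a25, at 258 CPM in replicate 1 and 337 CPM in replicate 2, was 1.42-fold higher in replicate 2 (exact 95% interval 1.21 to 1.67; adjusted p = 0.000375, exact binomial test). Slc25a22, at 7 and 27 reads, was 4.79-fold higher (2.03 to 13.0; adjusted p = 0.000869). Slc25a11 was 1.27-fold higher (1.09 to 1.48; adjusted p = 0.0223). In each of these 3 genes the higher library was replicate 2 on the CPM scale as well. The call of Slc25a11 was lost with total counts (adjusted p = 0.189, exact binomial test) and with Known, NIC and NNC models (adjusted p = 0.085, same test).

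Slc25a4 was 1.07-fold higher in replicate 2 (1.04 to 1.10; adjusted p = 0.000421, exact binomial test), but its CPM was the higher in replicate 1. The TMM factors shift all ratios by 0.11 on the log2 scale against scaling by total counts, under which the log2 ratio of Slc25a4 was 0.02, with the opposite sign. Total counts also changed the list of called members to Slc25a22, Slc25a25 and, higher in replicate 1, Slc25a3. Across the whole table, TMM factors gave 387 genes higher in replicate 1 and 593 higher in replicate 2, against 586 and 452 with total counts. No member was called when the scatter of all genes between the libraries (common dispersion 0.0622) was added in an edgeR exact test, in which 24 genes, 0.286%, were called. At an unadjusted p below 0.05, that test left 1 member and 311 genes.

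**Figure D2:**
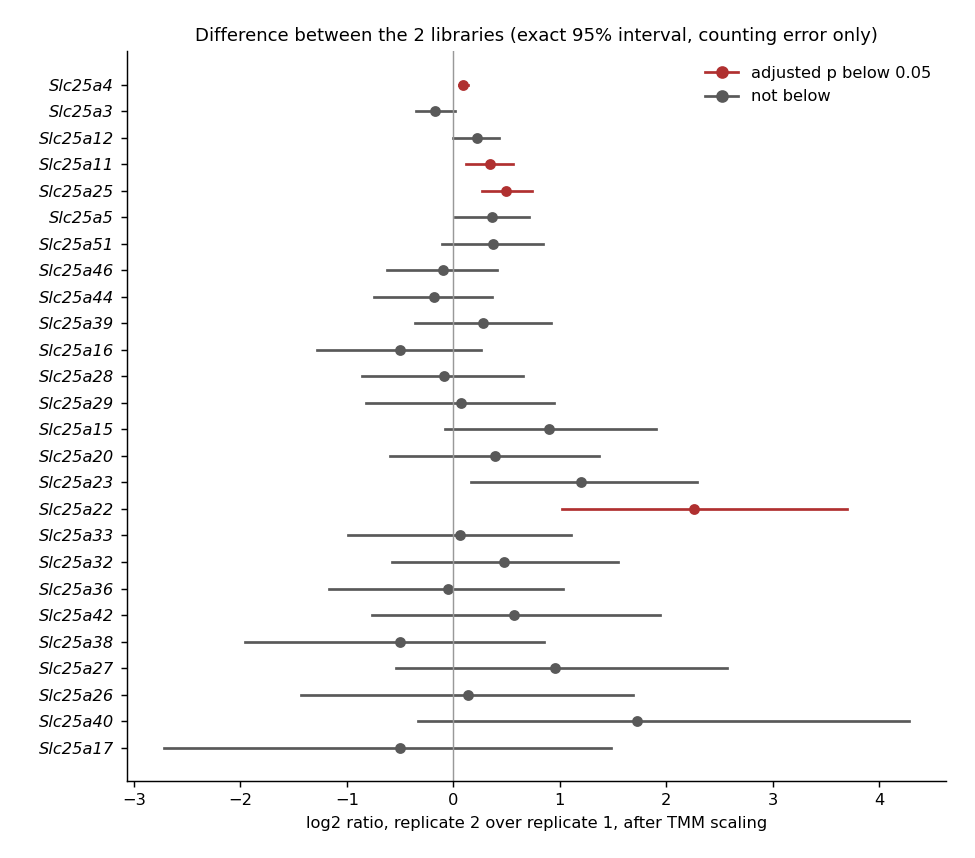
Log2 ratio of replicate 2 over replicate 1 after TMM scaling for 26 of the 27 tested members, ordered by mean level, with exact 95% intervals from counting error. Red marks the 4 members with an adjusted p below 0.05, namely Slc25a4, Slc25a11, Slc25a25 and Slc25a22, all right of 0.

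Of the other abundant members, none passed the test. Slc25a3 was 1.13-fold higher in replicate 1 (0.994 to 1.27; adjusted p = 0.248, exact binomial test). Slc25a12 was 1.16-fold higher in replicate 2 (1.00 to 1.35; adjusted p = 0.196) and Slc25a5 1.29-fold (1.01 to 1.64; adjusted p = 0.181). Slc25a51 gave 1.29-fold (0.929 to 1.79; adjusted p = 0.390). Slc25a46 and Slc25a44 gave 1.07-fold and 1.13-fold in favour of replicate 1, with adjusted p of 0.936 and 0.813 in the same exact test. Unadjusted p lay below 0.05 for 7 of the 27 members tested, and for 1886 of all 8394 genes tested. The 12 slow-fibre markers moved in the direction of the 4 called members, at 880 and 5747 CPM, and their part in these differences was not tested.

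Transcript length went with the ratio over all genes (Spearman's rho -0.36 over 8394 genes of the same 2 libraries) and less among the members (-0.10 over 27). With each gene's expected share set by genes whose leading model had a like length, 6 members were called. This added Slc25a5 and Slc25a23 to the 4, beside 8.53% of all genes. Shorter transcripts thus stood relatively higher in replicate 1, with a median log2 ratio of 0.37 over 899 genes under 1000 bases and -0.31 over 2174 genes over 4000 bases. For Slc25a23 the length used was 598 bases, that of Slc25a23-206, whose chain had 1 read in each library. Its most frequent chain, with 8 and 18 reads, had 9 exons, so its added call rests on a length that most of its reads did not have. The added call of Slc25a5 has the same limit. Its length was taken as 1240 bases, while 55 of 138 and 30 of 143 reads had its annotated spliced chain.

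Genes that work beside these carriers were described by lists. Of the kin named otherwise, Ucp3, the uncoupling protein of muscle, was higher in replicate 2 (58.1 and 104 CPM; 1.93-fold, 1.40 to 2.68; adjusted p = 0.000636, exact binomial test). Mtch1 and Mtch2, carrier-like proteins of the outer membrane, had 121 and 130 CPM and 118 and 108 CPM, and neither passed the test; Ucp2 had 3 and 1 reads and Ucp1 had 0. Of 13 tested members of the other inner membrane transport list, 0 were higher in replicate 1 and 2 in replicate 2, near the 11.7% called over all genes. Among these was Letm1, a cation exchanger, at 80.5 and 133 CPM. Both mitochondrial pyruvate carrier genes, Mpc1 (243 and 228 CPM) and Mpc2 (209 and 222 CPM), had adjusted p above 0.05. Against genes of like length, the 2 calls of this list were instead Mpc1 and Mpc2, and Letm1 was not called. The outer membrane channels Vdac1, Vdac2 and Vdac3 and the receptor Tspo gave 0 calls of 4, with a summed level of 1228 and 1117 CPM. Vdac3 alone was called against genes of like length.

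The enzymes of the malate-aspartate shuttle gave 2 calls of 4, both higher in replicate 2: Mdh1, the cytosolic malate dehydrogenase (323 and 412 CPM), and Mdh2, its matrix partner (660 and 722 CPM). The glycerol phosphate shuttle, the other route for cytosolic reducing power, gave 2 of 3, Gpd1 (330 and 395 CPM) and Gpd2 (220 and 311 CPM), both higher in replicate 2. Carnitine enzymes gave 3 of 5, all higher in replicate 2, with Crat, which buffers acetyl groups, at 487 and 656 CPM and Cpt2 at 72.5 and 120 CPM. The genes for iron-sulfur and haem synthesis gave 1 of 10, Alas1, the first enzyme of haem synthesis, at 188 and 274 CPM. Against 11.7% of all genes, these lists are small, and their median log2 ratios were -0.23, -0.60, -0.55 and -0.31 in that order. Against genes of like length, which called 8.53% of all genes, the calls numbered 2 of 4, 1 of 3, 2 of 5 and 2 of 10. Gpd2 was then not called.

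ATP synthase, which uses the phosphate and ADP the carriers deliver, summed over 16 genes to 11634 and 11350 CPM, close to the level of the whole carrier family. In that list 1 gene was higher in replicate 1, Atp5g2 (164 and 93.3 CPM), and 2 in replicate 2, Atp5a1 (2129 and 2453 CPM) and Atp5f1 (532 and 622 CPM). The median log2 ratio was 0.01. Against genes of like length, 11 of the 16 were called and the median was -0.33. Of 5 tested kinases that pass on the ATP, Ckmt2, the mitochondrial creatine kinase of muscle, was higher in replicate 2 (679 and 1224 CPM; 1.95-fold, 1.78 to 2.14; adjusted p = 4.97e-46, exact binomial test). Ak1, the cytosolic adenylate kinase, was 1.14-fold higher in replicate 2 and Ckm 1.03-fold higher in replicate 1. None of these 9 lists kept a call with the dispersion added.

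Most carrier reads matched annotated structures. Known models took 80.8% of the family's reads in replicate 1 and 84.0% in replicate 2, against 63.6% and 59.3% for all annotated genes. Models with at least 1 unannotated splice site (NNC) took 0.81% and 1.02%, against 17.9% and 21.5% for all genes. Slc25a4 weighs most in these shares, and its spliced reads were nearly uniform: 7500 of 7540 Known, NIC and NNC reads in replicate 1 and 6855 of 6890 in replicate 2 carried the 4-exon chain of Slc25a4-201. NIC models join annotated splice sites in an unannotated combination.

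Partial reads differed in name more than in structure. The share of incomplete splice matches (ISM) was 16.1% in replicate 1 and 2.49% in replicate 2, and that of Genomic models 1.82% and 11.8%. Single-exon models in the last exon of Slc25a4, with 1620 reads in replicate 1 and 989 in replicate 2, had the class ISM in replicate 1 and Genomic in replicate 2. They made up 17.5% of the gene's reads in replicate 1 and 12.4% in replicate 2. With ISM models alone, the log2 ratio of Slc25a4 was 4.26 in favour of replicate 1, which is the value this naming gives and not a level.

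Slc25a5 was read mostly as single-exon models. These took 83 of 138 reads in replicate 1, or 60.1%, and 113 of 143 in replicate 2, or 79.0% (Wilson 95% interval 71.6 to 84.9). The models were listed as starting at position 36798553 on chromosome X, past the last coding base at 36798541, and so as holding no coding sequence. In replicate 1 the model was listed as 1 base long, so its positions cannot give the extent of the reads. The spliced reads numbered 55 and 30, and every one had the 4-exon chain of Slc25a5-201. Over the genes with 100 or more reads, the median share of single-exon reads was 2.87% in replicate 1 (1294 genes) and 2.36% in replicate 2 (1048 genes), and 97.3% and 99.0% of those genes lay below Slc25a5. Counted by spliced reads alone, the log2 ratio of Slc25a5 turned from -0.36 to 0.60, so its direction between the libraries depends on these reads. Slc25a44 had single-exon shares of 40.6% and 28.6%. Its models were also listed past the coding part, but at 88410498 to 88410499 on chromosome 3, too short to give the extent of the reads.

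**Figure D3:**
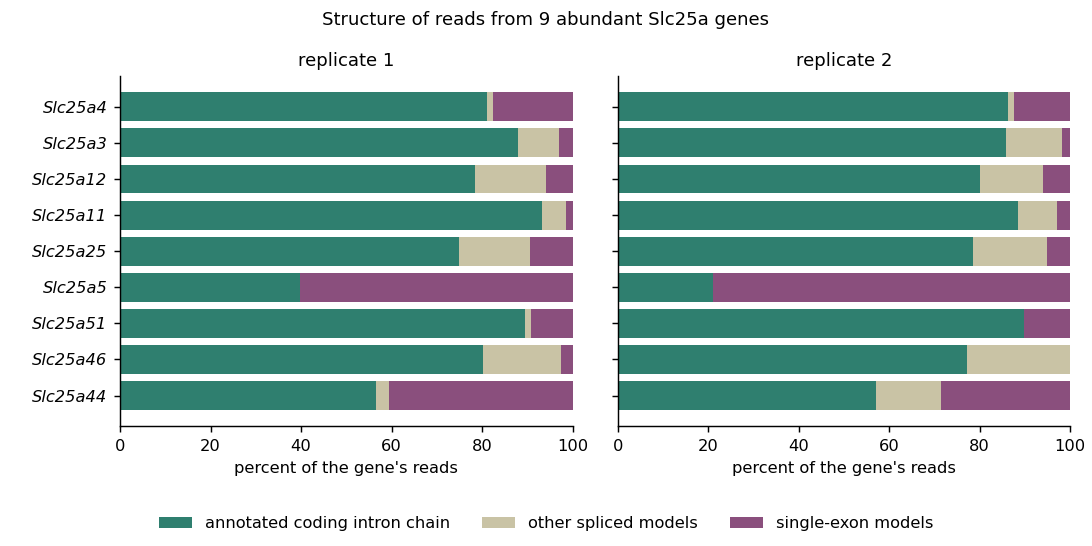
Share of each gene's reads, in percent, that had an annotated coding intron chain, another spliced structure or a single exon, for 9 of the 10 most abundant members in each library. Slc25a5 stands out with 60.1% and 79.0% of single-exon reads, and Slc25a4 shows 17.5% and 12.4%.

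Single-exon genes that resembled members drew almost no reads. Of 26 that shared over 50% of their 21-base words with a member's transcripts, 22 resembled Slc25a51. These 22 are annotated as microRNA genes, so their counts do not speak of copies of the carrier gene. Among them Gm25692 had 2 reads, in replicate 1. All others of the 26 had 0 reads in both libraries. They include the processed pseudogenes Gm5066, which resembled Slc25a40, and Gm5529 and Gm5560, which resembled Slc25a5.

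Isoform use was compared for the 13 members with 20 or more Known, NIC and NNC reads in each library. The leading isoform was an annotated coding one in all 13, and its mean share ran from 60.6% for Slc25a44 to 100% for Slc25a5, with a median of 93.7% against 89.8% over all 3521 genes compared. None of the 13 shares differed between the libraries (Fisher's exact test, Benjamini-Hochberg adjusted over all genes, of which 0.454% were called), 1 having an unadjusted p below 0.05. With all classes of model counted, the share of Slc25a4 differed, as its single-exon reads then entered the total.

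The long transcript of Slc25a12 had 1 main spliced form. Its 18-exon chain, Slc25a12-206 at 6351 annotated bases, took 295 of 297 Known, NIC and NNC reads in replicate 1 and 283 of 288 in replicate 2. Of all reads of the gene, partial ones included, the chain took 78.5% in replicate 1 and 80.2% in replicate 2. Slc25a11 had its 8-exon form in 308 of 322 and 299 of 319 reads. In Slc25a46, 61 of 73 and 44 of 56 reads had the 8-exon form.

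The phosphate carrier was read almost only with exon 3A, the exon known from heart and skeletal muscle, printed above with its alternative 3B. Among reads with exactly 1 of the exons, 562 had 3A and 17 had 3B in replicate 1, a share of 97.1% (Wilson 95% interval 95.3 to 98.2). In replicate 2, 409 had 3A and 5 had 3B, a share of 98.8% (97.2 to 99.5). The shares, 97.9 ± 1.22% (SD, n = 2), did not pass the test between libraries (Fisher's exact test, p = 0.081). Both exons stood in 1 read, in replicate 1, and 3 and 7 reads joined the flanking exons with neither. Annotated coding lengths are 358 codons with 3A (Slc25a3-206) and 357 with 3B (Slc25a3-201).

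Slc25a25 transcripts came nearly all from 1 of its annotated starts. Of reads whose outermost 5′ exon ended at an annotated first-exon splice site, 232 of 246 in replicate 1 and 282 of 291 in replicate 2 used that of Slc25a25-203, or 94.3% (90.7 to 96.6) and 96.9% (94.2 to 98.4). The start of Slc25a25-201 and Slc25a25-205, upstream, was used by 6 and 3 reads. The start of Slc25a25-202 and Slc25a25-204 was used by 1 read in each library. The first coding exons printed above differ throughout, and the annotated coding lengths are 469 codons for Slc25a25-203 and 514 for Slc25a25-201. The gene's higher level in replicate 2 was therefore a higher level of the Slc25a25-203 chain, at 209 and 254 reads.

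The promoter window of this start, at chr2:32424017-32424316 in RefSeq's table for GRCm38.p6, minus strand, runs from 250 bases before to 50 after the RefSeq start. It is shown because this 1 of 3 RefSeq starts supplied most reads. Both strands were searched for 4 motifs, and capitals mark the matches. The cyclic AMP response element was searched as TGACGTCA. The GC box was searched as GGGCGG. For the TATA box the letters were TATAAA. For the E-box of muscle genes they were CAGCTG.
Slc25a25 promoter: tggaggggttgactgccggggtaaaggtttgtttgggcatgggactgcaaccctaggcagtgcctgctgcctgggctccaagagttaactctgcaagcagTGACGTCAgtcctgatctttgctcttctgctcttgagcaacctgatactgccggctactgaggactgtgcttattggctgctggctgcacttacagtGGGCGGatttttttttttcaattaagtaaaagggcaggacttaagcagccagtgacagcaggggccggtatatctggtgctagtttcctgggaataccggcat
The cyclic AMP response element occurred at 1 place, starting 150 bases before the start, and the GC box at 1 place, starting 53 bases before it. The response element occurs in 1.79% of the 32851 promoters of the table, the GC box in 35.7%, the TATA box in 13.6% and the E-box in 16.3%. The windows of the other 2 starts held no such response element, and 1 of them held the GC box at 2 places. The motifs do not overlap, and a match describes the letters only.

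Spliced reads of Slc25a23 were assigned to models with an early end. Of its 13 and 24 reads, 11 and 22 were in models that run past the splice site of the exon before last. The listed end of all these models was 57047051, the end of Slc25a23-206, so where each read stopped is not known. Reads spliced to the last exon of Slc25a23-201 numbered 0 and 0. The share past the site was thus 100% in both libraries, with Wilson 95% intervals of 74.1 to 100 and 85.1 to 100. In 8 and 18 reads this end followed the full row of upstream exons, 9 exons in all, a combination that Slc25a23-206, annotated with 4 exons, does not have. Another 2 and 1 reads were single-exon models, and the 2 of replicate 1 lay in the last exon of Slc25a23-201. Whether the early end is the end of a mature RNA was not tested. Up to the end of the exon before last the coding part is 1219 bases. The early end as annotated adds the 65 capital bases printed above, for 428 codons. The last exon of Slc25a23-201 adds 182, for 467 codons.

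Slc25a22 used several first exons, and Slc25a44 several first-exon splice sites that lie close together. In Slc25a22, 3 of 6 reads with an annotated first exon in replicate 1 and 18 of 27 in replicate 2 used the exon whose splice site lies at 141435288 on chromosome 7, while 3 and 5 used the one at 141437569. The most frequent chain, with 10 exons, had 3 and 15 reads and is an unannotated combination of annotated splice sites. In Slc25a44, 29 of 39 and 18 of 32 reads left the first exon at position 88424728 on chromosome 3, 5 and 7 at 88424774 and 5 and 7 at 88424846. The share of its leading isoform was 74.4% in replicate 1 (58.9 to 85.4) and 46.9% in replicate 2 (30.9 to 63.6), which did not pass the test (Fisher's exact test, p = 0.0267, adjusted p = 0.855 over 3521 genes).

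**Figure D4:**
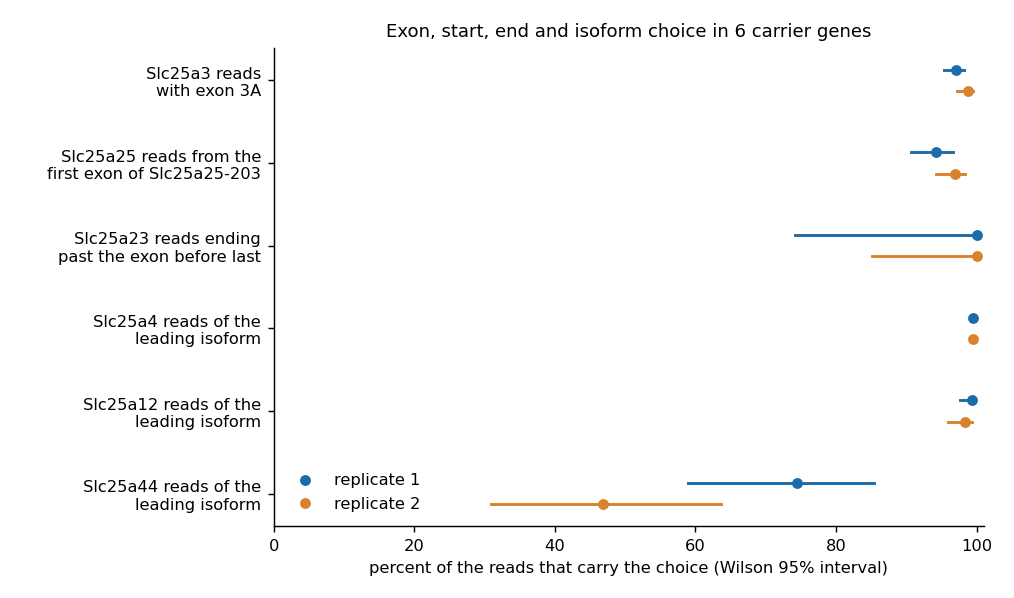
Percent of reads in each library that carried exon 3A in Slc25a3, the Slc25a25-203 first exon or the early end of Slc25a23. Below them is the share of the leading isoform of Slc25a4, Slc25a12 and Slc25a44 among Known, NIC and NNC reads. Lines are Wilson 95% intervals, and reads that do not show the choice are left out. Slc25a44 lies lowest, at 74.4% and 46.9%, with overlapping intervals, and the other 5 genes lie above 94%.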

How the data were processed

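Long-read RNA was counted in 2 libraries of 1 group. For each transcript model, the authors deposited an unnormalized read count; columns for its exon number, length and class stand beside it, per the file headers. The deposited annotations give exon positions on mm10, and the labels name that assembly; TALON named the added models, per the file headers. Aligner, filters and versions: not given in the sources used here.

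Counts were summed over models per annotated gene (GENCODE M21) and divided by the reads of annotated endogenous genes for CPM. Genes with 10 or more reads were tested with a 2-sided exact binomial test on TMM effective library sizes (edgeR 4.0.16, R 4.3.3; factors 1.04 and 0.961), Benjamini-Hochberg adjusted over 8394 genes at 0.05. With 1 library a side, no quasi-likelihood fit has residual degrees of freedom. Models were matched between libraries by intron chain. Isoform shares used Fisher's exact test for genes with 20 or more Known, NIC and NNC reads in each library. Alternatives were DESeq2 1.42.0 size factors, total counts, read minimums, an edgeR exact test with common dispersion, model classes and a length offset (running median over 500 genes). Python 3.11.15, numpy 2.4.6, pandas 2.3.3 and scipy 1.17.1 were used. The tests were checked on simulated counts with counting error only, which cannot show how they do under the wider scatter of these libraries. The members, lists and tests were chosen with earlier results of these data known. Slc25a genes are named with full statistics for the 4 called members and the 10 most abundant, except for a few genes of the lists that are not reported here; each other list is given by its counts and up to 4 genes, the most abundant or most different. Names Atp5if1, Atp5md and Atp5pb are not in the annotation and were not used. No sequence of genes on chromosome 18 is shown.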

Additional observations from a re-analysis of the deposited data

How the results depend on the processing

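Leaving out a library kept the summed level of the family between 10363 and 10380 CPM, the Slc25a4 share between 78.7 and 79.7% and the exon 3A share between 97.1 and 98.8%. The summed level was 10138 CPM with Known, NIC and NNC models, 13937 CPM with Known models alone, 9904 CPM over all reads of the tables and 9523 CPM without single-exon models, a setting chosen after seeing the data; the Slc25a4 share was 80.3% with Known models and 78.1% without single-exon ones. Called members numbered 0 of 27 with the dispersion added, 2 of 21 with Known models and 1 of 6 with ISM models; over all genes the dispersion left 24 calls and ISM models 251, with fewer genes tested. Leading isoforms differed in 49 genes, 1 of them a member, with all classes and in 4 genes with Known models alone, against 16. The sign of the log2 ratio of replicate 1 over replicate 2 turned for Slc25a4 with total counts (0.02) and ISM models (4.26). It turned for Slc25a12 with ISM models (0.13) and the length offset (0.11), and for Slc25a3 with ISM models (-0.50) and the length offset (-0.06). It turned for Slc25a44 with Known, NIC and NNC models (-0.02) and without single-exon models (-0.04). For Slc25a5 it turned with Known, NIC and NNC models (0.57), Known models (0.55) and without single-exon models (0.60). Apart from what is given above for Slc25a4 and Slc25a5, the cause of these changes was not tested. Of 103 values of the 11 members followed under the 10 alternatives, 80 kept direction and side of the threshold, 10 lost the threshold, 2 gained it and 11 turned. A gene test without 1 library is not possible with 1 library a side. No paired analysis was possible because the series has 1 group. Depth limits members under 10 reads to presence or absence.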
